A study of Mus musculus with 9 samples.

Results

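Cystatins were examined in testes of mice at postnatal day 10, strain C57BL/6, in a table of 29661 rows for 29660 RefSeq transcript accessions. The 5 genes Cst3, Cst8, Cst9, Cst12 and Cstb were chosen by name as cystatins of the testis, with their FPKM values (fragments per kilobase of transcript, scaled to mapped fragments) in both columns already known, so their values are a description and carry no test. Each gene had 1 row, so 5 of the 29661 rows were members. The table holds 1 pooled FPKM value for 3 libraries with the genotype label Lin28a knockout, whose titles carry the letters cKO, and 1 for 3 libraries labelled wild type; the driver of a conditional deletion, and whether replicate libraries stem from different animals, are not given in the sources used here. Another 3 samples are of RNA bound to LIN28A (CLIP) and were not analysed here.

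Cystatins are reversible, tight-binding inhibitors of papain-like cysteine proteases, chiefly the lysosomal cathepsins. Stefins such as cystatin B (Cstb) lack a signal peptide and act inside the cell, whereas family 2 cystatins such as cystatin C (Cst3) are secreted. Reproductive tissues express a divergent branch of family 2 named after CRES (cystatin-related epididymal spermatogenic, the product of Cst8), whose founding member lacks sequences needed to inhibit cysteine cathepsins. Cst9 encodes testatin, first described in the pre-Sertoli cells of the fetal gonad, and Cst12 encodes CRES3.

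Lin28a itself, which checks the labels, stood at 23.4 FPKM in the case-labelled and 8.82 FPKM in the control-labelled column, a 2.66-fold excess where the knockout libraries should be, at q = 0.00191 by the authors' deposited table. Every direction below therefore rests on the column names alone. The FPKM of all rows summed to 328509 and 325735 in the 2 columns, and library depth could not be read from them. The testis label was met by the markers of its cells: Sox9 (35.1 and 30.5 FPKM, case column first) and Amh (128 and 108 FPKM) of Sertoli cells, Ddx4 (72.6 and 72.8 FPKM over its 2 rows) of germ cells, and Insl3 (99.6 and 76.9 FPKM) of Leydig cells were all present.

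The 5 cystatins spanned a wide range of levels. Cst12 was the most abundant, at 1061 FPKM in the case-labelled column and 1150 FPKM in the control-labelled column. Of all 29661 rows, this was the 5th highest level in the first column and the 6th highest in the second. Cst9 was at 596 and 416 FPKM, which ranked 27th and 47th. Cst3, the general secreted inhibitor of cathepsins, was at 334 and 416 FPKM, or 69th and 48th. Cstb followed at 71.7 and 74.3 FPKM, ranked 758th and 712th, and Cst8 was the lowest of the 5 at 17.6 and 9.65 FPKM. The order was the same in both columns, although Cst9 and Cst3 were level in the control-labelled column, at 416.5 and 416.2 FPKM, and stood 1.79-fold apart in the case-labelled column. With libraries pooled, these levels have no spread of their own, so whether neighbours in the order differ beyond it cannot be said. Cst12 exceeded Cst8 by 60.2-fold in the case-labelled column and by 119-fold in the control-labelled column.

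**Figure D1:**
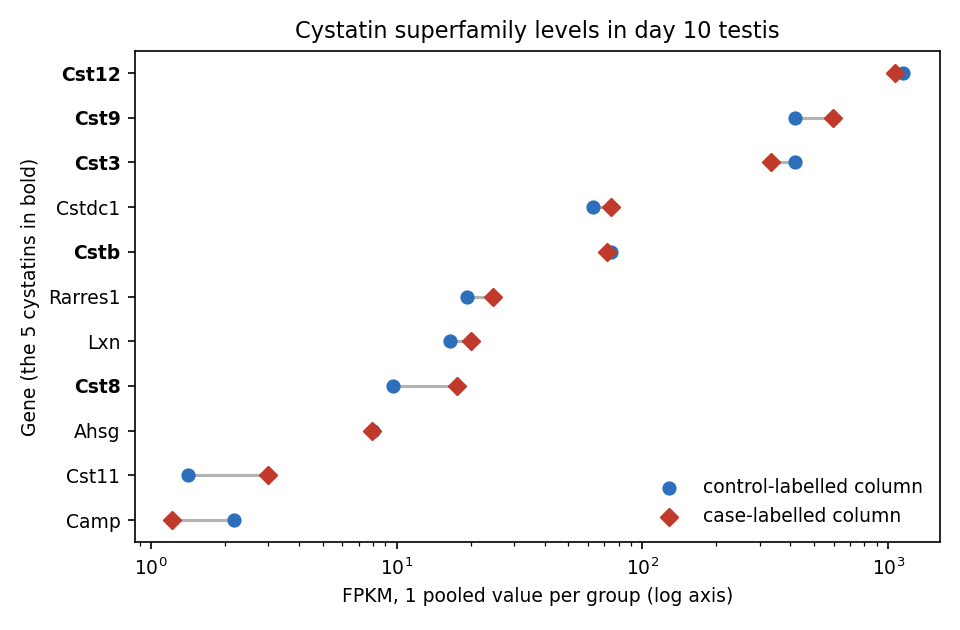
FPKM on a log axis for the 11 cystatin superfamily genes with at least 1 FPKM in either column, 1 pooled value per group (red diamonds, case-labelled column; blue circles, control-labelled column), with no error since libraries are pooled. Cst12, Cst9 and Cst3 lie above all other family members, and the diamond and circle are farther apart for Cst8 and Cst9 than for Cst12 and Cstb.

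Together the 5 genes held 0.633% of the summed FPKM in the case-labelled column and 0.634% in the other (2081 and 2067 FPKM). Their joint level therefore differed by a ratio of 1.01, while single members lay on both sides: 2 were higher and 3 lower in the case-labelled column. Of the 12587 genes averaging at least 1 FPKM, 60.8% were higher in that column.

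Cst8 and Cst9 were the 2 members with higher values. The ratio for Cst8 was 1.83-fold, from 9.65 to 17.6 FPKM, and the ratio for Cst9 was 1.43-fold, from 416 to 596 FPKM. The authors' p-value matched the two-sided normal p of their deposited statistic to within 2.77e-06 in all 13586 tested rows with both columns above 0, so dividing the log2 ratio by that statistic returns the standard error behind their test. For Cst8 the log2 ratio of 0.87 had a standard error of 0.47, and its 95% interval ran from 0.963-fold to 3.47-fold, with p = 0.0651 by the authors' deposited table. For Cst9 the log2 ratio of 0.52 had a standard error of 0.27, an interval from 0.986-fold to 2.08-fold and p = 0.0593 by the authors' deposited table. Both intervals include equality, close to their lower end. How the 3 libraries of a group entered that error is not stated, so whether it measures technical spread or spread between libraries is not known.

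Cst3, Cst12 and Cstb had the lower values. Cst3 was 1.25-fold lower in the case-labelled column, a log2 ratio of -0.32 with a standard error of 0.25, and p = 0.196 by the authors' deposited table. The 95% interval of its ratio ran from 0.575 to 1.12. Cst12 was 1.08-fold lower, with a log2 ratio of -0.12 and a standard error of 0.27 (p = 0.671 by the authors' deposited table), an interval of 0.637 to 1.34. Under quantile normalization of the 2 columns its difference changed sign, to 0.016 in log2(FPKM + 1). Cstb was 1.04-fold lower, with a log2 ratio of -0.05, a standard error of 0.31 and p = 0.867 by the authors' deposited table. Its interval of 0.631 to 1.47 leaves room for a difference in either direction.

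By the authors' q-value, 0 of the 5 passed 0.05, all 5 being listed at 0.999966 by the authors' deposited table, where 0.0514% of the 13629 tested rows passed. At an unadjusted p under 0.05, 0 of the 5 passed by the authors' deposited table, beside 1.28% of tested rows. Since the members were chosen with this contrast known, nothing is read from these counts.

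In 91.0% of the 13586 tested rows with both columns above 0, the ratio was smaller than its own standard error on the log2 scale. These errors were therefore wide beside most of the ratios. Rows of at least 100 FPKM had a median standard error of 0.25 on the log2 scale (437 rows), and rows between 10 and 100 FPKM one of 0.27 (5912 rows). Among the 97 tested rows with a mean FPKM within a factor of 2 of Cst9, the median size of the ratio was 1.05-fold, and Cst9 itself was the 1 row with a ratio as large as its own 1.43-fold. For Cst8, 20 of 5086 rows of like level, or 0.393%, had a ratio at least as large in either direction, Cst8 included. These rows were matched on level only. The standard error of Cst8, 0.47, lay above the median of 0.27 for rows between 10 and 100 FPKM. The share was 5.06% of 158 rows for Cst3, 38.7% of 31 rows for Cst12 and 60.3% of 1591 rows for Cstb. These shares describe 2 pooled columns and are not p-values. The members were chosen with these ratios known, so nothing is read from the shares or from the place of Cst9.

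**Figure D2:**
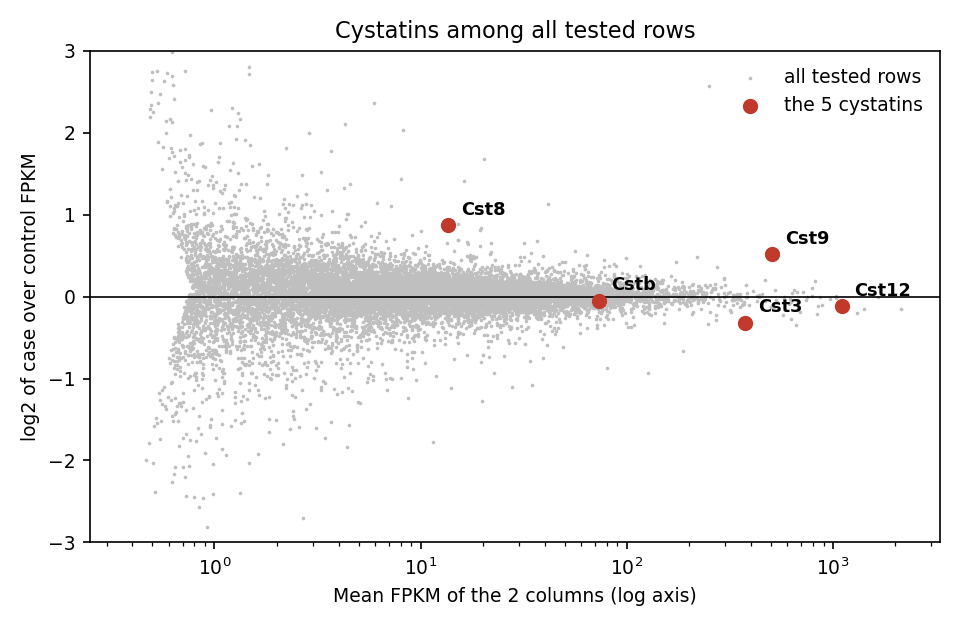
Log2 ratio of case over control FPKM against the mean FPKM of the 2 columns (log axis) for the tested rows with both values above 0 (grey; 34 of the 13586 lie beyond the axis), with the 5 cystatins in red. Cst9 and Cst8 sit at the upper edge of the rows of their own level, Cst3 near the lower edge, and Cst12 and Cstb inside the cloud. The members were chosen with these values known, so their places are a description.

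**Figure D3:**
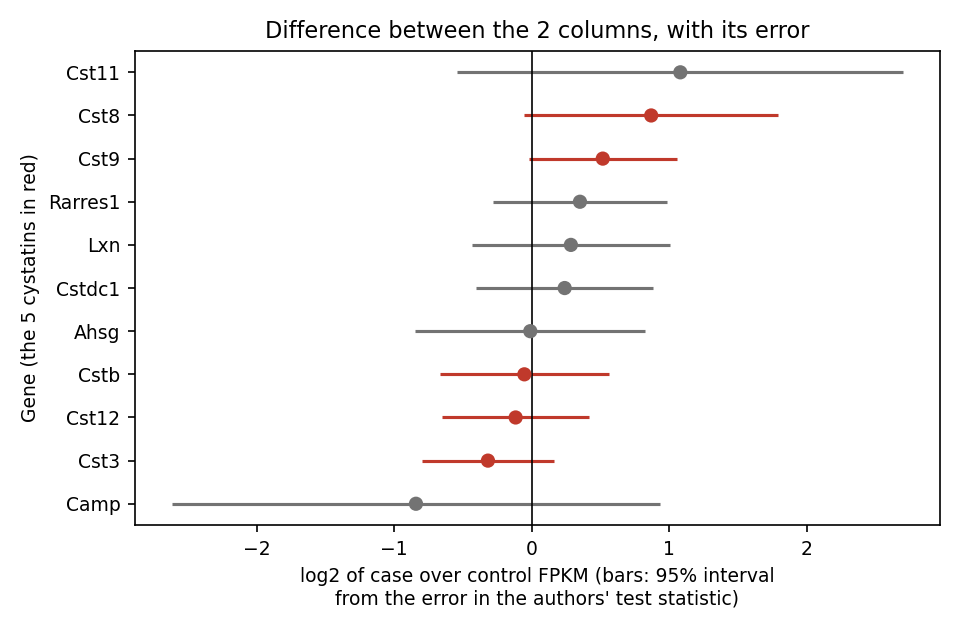
Log2 ratio of case over control FPKM for the 11 cystatin superfamily genes of at least 1 FPKM in either column (points; the 5 cystatins in red), with 95% intervals from the standard error that the authors' test statistic implies. All 11 intervals include 0; those of Cst8 and Cst9 reach it only at their lower end.

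Of the 5 genes, 4 lie in the cystatin cluster of mouse chromosome 2 (mm10, 148750361 to 148875468), which holds 9 genes over 125 kb in the table. Cst12 (NM_027054) spans 148789361 to 148793437, Cst8 (NM_009978) 148798839 to 148805584, Cst9 (NM_009979) 148835147 to 148838737 and Cst3 (NM_009976) 148871732 to 148875468. Cstb (NM_007793) lies apart on chromosome 10, from 78425670 to 78427622. The rows of the 5 overlapped those of 0 other accessions. Their starts were read as counting from 0, and 1 was added.

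Levels differed sharply between neighbouring genes of the cluster. Cst8, at 17.6 and 9.65 FPKM, starts 5.4 kb beyond the end of Cst12, at 1061 and 1150 FPKM. Between Cst8 and Cst9 lies Cst13, at 0.292 and 0.361 FPKM, and between Cst9 and Cst3 lies Cstdc2, at 0.309 and 0.524 FPKM. The first gene of the cluster, Cstl1, was at 0.260 FPKM in the case-labelled column and listed at 0 in the other. Thus 3 of the 9 genes were under 1 FPKM in both columns; Cst13 and Cstdc2 lie between more abundant neighbours, and Cstl1 at the edge of the cluster. Cst11, which encodes the epididymal protein CRES2, was at 3.0 and 1.42 FPKM, a 2.12-fold ratio with p = 0.191 by the authors' deposited table. Cstdc1, the immediate neighbour of Cst12 and listed in the table under its older name Cst14, was at 74.4 and 63.0 FPKM, a 1.18-fold ratio with p = 0.462 by the authors' deposited table.

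**Figure D4:**
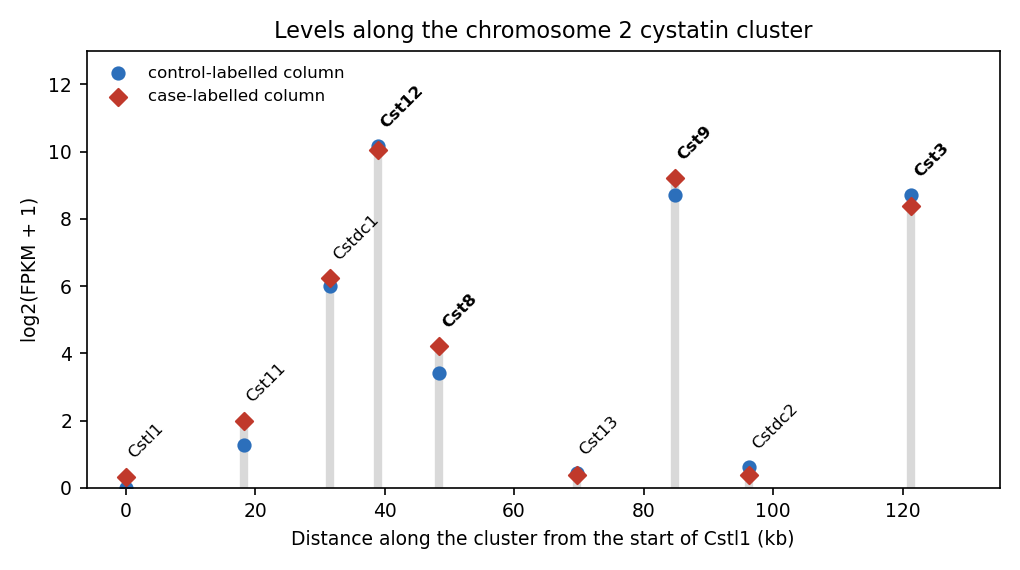
Level in log2(FPKM + 1) of each gene of the chromosome 2 cluster against the distance of its start from that of Cstl1 in kb (red diamonds, case-labelled column; blue circles, control-labelled column; members in bold; grey bars rise from 0 to the higher value). Cst12, Cst9 and Cst3 stand high, with Cst8, Cst13 and Cstdc2 between them much lower in both columns.

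The stretches upstream of the 4 clustered members are shown because these neighbours differ so much in level. They are the 250 bases before the RefSeq start (GRCm38.p6) at chr2:148789115-148789364 (Cst12, plus strand), chr2:148834897-148835146 (Cst9, plus strand), chr2:148798589-148798838 (Cst8, plus strand) and chr2:148875513-148875762 (Cst3, minus strand), each written 5′ to 3′ along its gene. For Cst12 and Cst3 the start used differs from the edge of the gene's row, at 148789361 and 148875468. Distances of motifs are counted from the start used for these stretches. Capitals mark matches to the 5 motifs given after them. Cstb was not matched.
Cst12: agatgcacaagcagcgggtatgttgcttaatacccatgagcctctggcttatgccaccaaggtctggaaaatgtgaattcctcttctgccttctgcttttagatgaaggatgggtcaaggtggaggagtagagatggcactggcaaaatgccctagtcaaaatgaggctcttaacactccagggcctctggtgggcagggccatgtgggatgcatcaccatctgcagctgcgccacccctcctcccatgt
Cst9: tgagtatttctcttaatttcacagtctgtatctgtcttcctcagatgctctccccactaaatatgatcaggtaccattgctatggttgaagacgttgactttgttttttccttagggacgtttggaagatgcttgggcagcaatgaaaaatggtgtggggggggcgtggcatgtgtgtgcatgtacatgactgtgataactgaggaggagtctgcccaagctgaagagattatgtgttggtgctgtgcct
Cst8: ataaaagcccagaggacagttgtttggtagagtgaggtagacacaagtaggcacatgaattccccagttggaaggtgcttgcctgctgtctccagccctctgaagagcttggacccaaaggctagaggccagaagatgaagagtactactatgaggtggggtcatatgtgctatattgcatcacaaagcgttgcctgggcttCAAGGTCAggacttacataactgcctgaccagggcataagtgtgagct
Cst3: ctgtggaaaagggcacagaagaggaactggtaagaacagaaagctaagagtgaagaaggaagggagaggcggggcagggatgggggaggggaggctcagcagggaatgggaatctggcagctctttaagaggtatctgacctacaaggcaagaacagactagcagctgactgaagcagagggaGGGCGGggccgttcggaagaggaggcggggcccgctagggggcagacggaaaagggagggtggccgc

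GC content was 45.6% upstream of Cst9, 49.6% for Cst8, 52.8% for Cst12 and 59.6% for Cst3, where the median of all 32851 RefSeq windows of this length was 52.4%. Cst3 held 8 CpG dinucleotides, Cst9 held 3, Cst12 held 2 and Cst8 held 1, beside a median of 6. The motifs were searched on both strands: the TATA box TATAAA, a site of the gonadal nuclear receptor NR5A1 (CAAGGTCA), a GATA site (AGATAA), a SOX core (AACAAT) and the GC box GGGCGG. Cst8 held CAAGGTCA on its own strand, 48 to 41 bases before the start, a motif found in 1.33% of all windows. Cst3 held GGGCGG at 67 to 62 bases before the start, and 32.7% of all windows hold that motif. Cst9 and Cst12 held 0 matches; TATAAA occurs in 12.4%, AGATAA in 9.99% and AACAAT in 9.42% of all windows. A match describes the letters only, and binding was not measured here.

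Beyond the 5, most genes of the wider cystatin superfamily were under 1 FPKM in both columns. Of 34 genes on the list, the 5 included, 29 were in the table. Of these, 11 reached 1 FPKM in either column, 18 stayed under 1 FPKM in both, and 9 of those were listed at 0 in both. Without the 5, 6 of 24 genes had a mean of at least 1 FPKM, beside 12587 of all 23158 genes. The other 6 of the 11 were Cst11, Cstdc1, Lxn, Rarres1, Ahsg and Camp. Lxn, the carboxypeptidase inhibitor latexin, was at 20.1 and 16.5 FPKM, and its relative Rarres1 at 24.7 and 19.4 FPKM. Ahsg, which encodes fetuin-A, was at 7.94 and 7.99 FPKM. Camp, whose cathelicidin precursor has a cystatin-like part, was at 1.22 and 2.18 FPKM. Of these 6, 4 had higher and 2 lower values in the case-labelled column, and 0 passed q of 0.05 or an unadjusted p of 0.05 by the authors' deposited table. The median difference in log2(FPKM + 1) was 0.25 over the 6 and 0.24 over all 11, against 0.03 over all 12587 genes analysed; with no filter on low values the superfamily median over the 29 genes in the table was 0.

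Cysteine cathepsins and legumain, a group that holds known targets of cystatins, were also read, and inhibition was not measured. The 6 with a mean of at least 10 FPKM had ratios of case to control between 0.879 (Ctsl) and 1.08 (Ctso). Of these 6, only Ctsl lay in the range of Cst12, Cst9 and Cst3. Ctsl (cathepsin L, which Sertoli cells secrete) was at 650 and 740 FPKM, above Cst9 and Cst3 in both columns and below Cst12. Lgmn, the asparaginyl endopeptidase legumain that cystatin C also inhibits, was at 92.0 and 90.7 FPKM. Ctsb (cathepsin B) was at 63.8 and 65.1 FPKM, Ctsf at 48.8 and 49.5 FPKM, Ctsz at 41.8 and 39.5 FPKM and Ctso at 16.5 and 15.3 FPKM. Of 15 cysteine cathepsins and legumain, 10 had a mean of at least 1 FPKM, of which 4 were higher and 6 lower in the case-labelled column, with a median difference of -0.02 in log2(FPKM + 1). None of the 10 passed q of 0.05 and 0 had an unadjusted p under 0.05 by the authors' deposited table. Ctsh (cathepsin H), named after its value was seen, was at 6.31 and 10.9 FPKM, with p = 0.0544 by the authors' deposited table.

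Testis RNA is a mixture of cells, and fewer cells of a type cannot be told apart from less RNA per cell. Sertoli cell markers, a list that also holds Ctsl, had 10 of 20 higher in the case-labelled column, beside 60.8% of all genes analysed. Their median difference was 0.02 in log2(FPKM + 1), and their summed levels were 5700 and 6120 FPKM. Among the abundant ones, Clu was at 2028 and 2251 FPKM, Aard at 1032 and 1042 FPKM and Defb19 at 776 and 897 FPKM. The values of the Sertoli markers with the smallest p-values went both ways: Rhox5 was at 8.90 and 19.3 FPKM, Tsx at 6.27 and 12.7 FPKM and Ptgds at 12.8 and 7.33 FPKM. With the Sertoli median subtracted, an alternative added after seeing the data, the Cst9 difference was 0.50 and that of Cst12 -0.13.

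Markers of other cells differed in value between the columns, and their part in the cystatin values was not tested. As background, 60.8% of the 12587 genes averaging at least 1 FPKM were higher in the case-labelled column. Of the 11591 with a p-value, 95 were under 0.05 unadjusted and 6 passed q of 0.05 by the authors' deposited table. Germ cell genes had 11 of 12 lower in the case-labelled column (median -0.28, summed levels 715 and 955 FPKM), with 4 of the 10 that have a p-value under 0.05 unadjusted and 0 past q of 0.05 by the authors' deposited table. Tex101, Hormad1 and Dmc1, the germ cell genes with the smallest p-values, were at 87.0 and 165, 15.6 and 29.8, and 14.2 and 24.9 FPKM. Ratios of case to control varied within the germ cell list. Sycp1 and Sycp3 stood at 0.652 and 0.555, and Stra8, Tex14, Dazl and Mael between 0.789 and 0.896. Kit and Ddx4 were nearly level at 0.965 and 0.998, and Zbtb16, the 1 higher gene, stood at 1.12. The lower values were therefore not of like size across the list. The row of Sycp3 and the 2 rows of Kit carried status FAIL from the authors and were not tested. The ratios of the tested genes alone also varied. The Leydig cell list had 7 of 8 genes higher (median 0.34, summed levels 334 and 258 FPKM). On it, Hsd17b3, which makes testosterone, was at 38.7 and 24.6 FPKM. Cyp11a1 and Cyp17a1, enzymes of steroid synthesis, were at 45.7 and 32.4 and at 26.0 and 17.8 FPKM. Which cells hold the RNA of these genes at this age was not tested. Peritubular and stromal genes had 9 of 9 higher (median 0.22, summed levels 1035 and 901 FPKM), with Col1a1 at 69.9 and 53.9, Tcf21 at 55.5 and 41.5 and Col3a1 at 177 and 149 FPKM. Macrophage genes had 0 of 11 higher (median -0.14, summed levels 113 and 138 FPKM); Lyz2 was at 31.9 and 45.6, Tyrobp at 12.5 and 16.0 and C1qc at 13.3 and 15.7 FPKM. In the Sertoli, Leydig, peritubular and macrophage lists, 0 genes passed q of 0.05 by the authors' deposited table, and 2 genes, Rhox5 and Hsd17b3, had an unadjusted p under 0.05.

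CRES is abundant in the caput epididymis, so the epididymal markers are given beside Cst8. Of 20 such genes, which include Cst11 and Cst13, 17 were under 1 FPKM in both columns and 7 were listed at 0 in both, among them the lipocalins Lcn5, Lcn8 and Lcn9 and the ribonuclease Rnase10. Only Defb42 (6.07 and 4.52 FPKM), Cst11 (3.0 and 1.42 FPKM) and Crisp1 (0.261 and 2.27 FPKM) had a mean of at least 1 FPKM. Defb42 and Cst11 had their higher value in the case-labelled column, as Cst8 did, with p = 0.502 and p = 0.191 by the authors' deposited table. Crisp1, a secreted epididymal protein, had its lower value there, with p = 0.00256 and q = 0.999966 by the authors' deposited table. No epididymis was measured here, so the level of these markers in it at postnatal day 10 is not known. The part of epididymal RNA in the Cst8 values was not tested.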

How the data were processed

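Expression was measured by RNA-seq in 6 of the 9 samples (3 labelled Lin28a knockout, 3 wild type). Reads were aligned with TopHat2 2.0.9 to mm10 (per the submitters' processing notes); no source used here names the program that computed expression. The authors deposited, per the file headers, 1 FPKM value per group, a log2 ratio, a test statistic, and a p-value and q-value per row. Rows with status OK (13629 of 29661) were taken as tested. FPKM depends on effective length, so levels of short transcripts such as cystatins rest on that correction; library depth is unknown. The column case was read as knockout and control as wild type from their names. The deposited ratio was that of control over case to within 5.01e-05 and was turned round. Values per library were not analysed here, so the planned limma test could not be run, and no SD, n or left-out replicate is given; the calls are the authors'.

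Symbols came from a RefSeq table (GRCm38.p6) for 98.0% of accessions. For gene lists, FPKM was summed over a gene's rows, genes averaging at least 1 FPKM were retained, and differences were taken in log2(FPKM + 1), which understates the change of low genes. Standard errors are the deposited log2 ratio over the deposited statistic, with 95% normal intervals. Named were all 5 members, family members of at least 1 FPKM, cathepsins of a mean of at least 10 FPKM, the 3 smallest p-values of each cell list, and defining markers. The members and lists were chosen with earlier results of these data known. Functions were tested on simulated data. Alternatives were the pseudocount, column scaling, filters, summed rows and the q-value threshold. Python 3.11.15, pandas 2.3.3, numpy 2.4.6, scipy 1.17.1 and matplotlib 3.10.9 were used.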

Additional observations from a re-analysis of the deposited data

How the results depend on the processing

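The 5 cystatin differences were recomputed under 7 alternatives (other pseudocounts, scalings and summed rows, and 1 added after seeing the data). Summing rows could not move them, since each of the 5 has 1 row. The added alternative, subtracting the Sertoli median, moved all 5 by the same small amount. As differences of log2 FPKM, case minus control, with the pseudocount of each alternative (1, 0.1 or none), Cst8 stayed between 0.77 and 0.87, Cst9 between 0.48 and 0.53, Cst3 between -0.35 and -0.31 and Cstb between -0.087 and -0.052. Cst12 changed sign under quantile normalization, to 0.016, a shift under its standard error. That method gives equal ranks equal values, and Cst12 ranked 5th in the case-labelled column and 6th in the other. The q-values of all 5 stayed at 0.999966 with rows under a mean of 1 or 5 FPKM left out. Crisp1, at p = 0.00256 by the authors' deposited table, was listed at the same q-value. The unchanged q-values therefore say little about these filters. The counts of called rows over all genes, 6 higher and 1 lower, stayed within 1.5 times at these filters and at a q-value under 0.10. Of 32 list medians under alternatives, 28 moved by under 0.1 with direction kept; that of Sertoli genes went from 0.02 to -0.017 with median-of-ratios rescaling (a shift of 0.035), that of epididymal genes from 0.36 to -6.37e-05 with no filter, and those of the cystatin superfamily (0.24) and of cathepsins and legumain (-0.02) to 0 with no filter, where genes at or near 0 enter. Leaving out each replicate was not run, since libraries are pooled. No paired analysis was possible because the libraries of a group share 1 value. Library depth is not known, so no counting interval is given.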

Other observations

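For each cystatin, the genes closest in level in both columns were sought among 9667 other genes with a single row and a mean of at least 1 FPKM, by distance in log2(FPKM + 1) over the 2 columns. With only 2 pooled values per gene, this likeness concerns level and ratio only, and a nearest gene need not share the ratio. Closest to Cst12 were Rpl41 (1035 FPKM in the case-labelled column and 1154 FPKM in the control-labelled column; distance 0.037), Aard and Rpl8. Closest to Cst3 were Defb36 (315 and 404 FPKM, distance 0.097), a beta-defensin gene, then Gm5148 and Calr. Closest to Cst8 were H2bc4 (16.4 and 10.5 FPKM, distance 0.14), Gm15085 and Gnpda1, and closest to Cstb were Polr2a (72.1 and 73.8 FPKM, distance 0.013), Pole3 and Mrpl42. For Cst9 the nearest genes lay farther away: Aldh1a1, a retinaldehyde dehydrogenase, at 502 and 435 FPKM (distance 0.25), followed by Actb and H3f3b. Unlike Cst9, H3f3b had its lower value in the case-labelled column, at 519 and 536 FPKM.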
